A study of Homo sapiens with 6 samples.

Results

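Transcripts of the Wnt pathway were compared between EP300-vector and empty-vector cultures of HS578T cells. The members were 48 genes for Wnt ligands, their secreted partners, their receptors, the cytoplasmic relay, beta-catenin and the TCF/LEF factors. Each was represented by the probe set that the platform annotation names for it, and 44 of the 48 were measured, with 1 probe set each. PORCN, FZD8, DVL1 and TCF7 were not analysed here. The 44 genes are a small share of the 21448 probe sets and 17687 named genes of the arrays. HS578T is a mesenchymal-like human cell line from a breast carcinoma. The EP300 protein acetylates lysines of histones and other proteins and serves beta-catenin, among many factors, as a co-activator. Cells of both groups had been stably transfected with pcDNA 3, either empty or with EP300 cDNA, selected with G418 and kept as pools of clones. RNA of 3 cultures per group was hybridised to 1 array each. The labels do not state whether the cultures of a group go back to more than 1 transfection, so the tests measure the spread between cultures.

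Wnt proteins are lipid-modified ligands that bind Frizzled receptors together with LRP5 or LRP6. In the canonical branch this halts the destruction complex of AXIN, APC and GSK3, so that beta-catenin accumulates, enters the nucleus and activates TCF/LEF factors. Several target genes, such as AXIN2, DKK1, RNF43 and LEF1, feed back on the pathway. Other ligands, WNT5A among them, signal mostly without beta-catenin. In the breast, FZD7 and LRP6 have been linked to basal-like tumours.

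Levels are the deposited array values on a log2 scale, where a difference of 1 is a doubling. Differences between groups are taken within a probe set, because probe sets differ in response. Places against the array quartiles and sums over markers set probe sets side by side, and are rough descriptions only. The 6 arrays had lower quartiles from 3.468 to 3.495 and medians from 4.456 to 4.497. Pearson correlations across probe sets were 0.9784 to 0.9807 within groups and 0.977 to 0.9807 between them. Mesenchymal markers such as VIM, FN1 and ZEB1 lay above the upper quartile of every array (10 of 10 genes). Of the epithelial markers 6 of 10, CDH1 and EPCAM among them, lay below the median of every array. The epithelial markers KRT8 and KRT18 (2 of 10) lay above the upper quartile of every array. The summed log2 level of the mesenchymal markers was 150.9 to 152.3 in control and 147.6 to 149.3 in EP300 cultures. Of the 10, 1 (SNAI2) was higher in EP300, and VIM was constant at 18.6 on all arrays. An unadjusted limma p below 0.05 was found for 4 of 10, against 6.52% of all probe sets. Among these SNAI2 was higher, and COL1A2, THY1 and TAGLN were lower. The summed level of the luminal markers was also lower without overlap, at 26.23 to 26.93 and 24.61 to 25.74, with 4 of 5 genes lower. The groups overlapped for ESR1 and GATA3, and only XBP1 (1 of 5) lay above the upper quartile of every array. Among epithelial markers KRT18 differed by -1.11, and the sums overlapped (46.68 to 48.41 and 46.43 to 49.52). The part of these shifts in the Wnt results was not tested. For leukocyte markers the sums were 22.08 to 22.91 and 22.27 to 22.48, and for endothelial markers 16.88 to 17.4 and 16.12 to 17.52, so the groups overlapped. EP300 itself was not analysed here, so the labels could not be checked by the level of the transfected gene. RNA came from whole cultures, so more transcript per cell and more cells with the transcript cannot be told apart.

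No member passed the test. The comparison, EP300 minus control arrays by limma over all 21448 probe sets, gave the members adjusted p-values from 0.738 to 0.996, and 0 of 44 lay below 0.05. The same held for 0 of all probe sets (0.0%), with 1399 of them at an unadjusted p below 0.05. Among the members 5 of 44 (11.4%) had an unadjusted p below 0.05, against 6.52% of all probe sets. These were DKK1, LEF1, RNF43 and WNT2B, which read higher in EP300 cultures (4 of 44, against 3.45% of all probe sets in that direction), and LRP6, which read lower (1 of 44, against 3.07%). The 3 EP300 arrays lay wholly above or below the 3 control arrays for 7 of 44 members (15.9%), against 12.2% of all probe sets. Of these, 5 lay above, as did 6.3% of all probe sets, and 2 below, as did 5.91%. Of the members 22 were higher and 22 lower, with a median difference of 0.01, and the median over all probe sets was 0.001. The median absolute difference was 0.19 for the members and 0.2 for all probe sets. The 95% intervals reached 0.44 to 0.85 to either side of a member's difference, so changes smaller than these could not be resolved with 3 arrays a group.

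**Figure D1:**
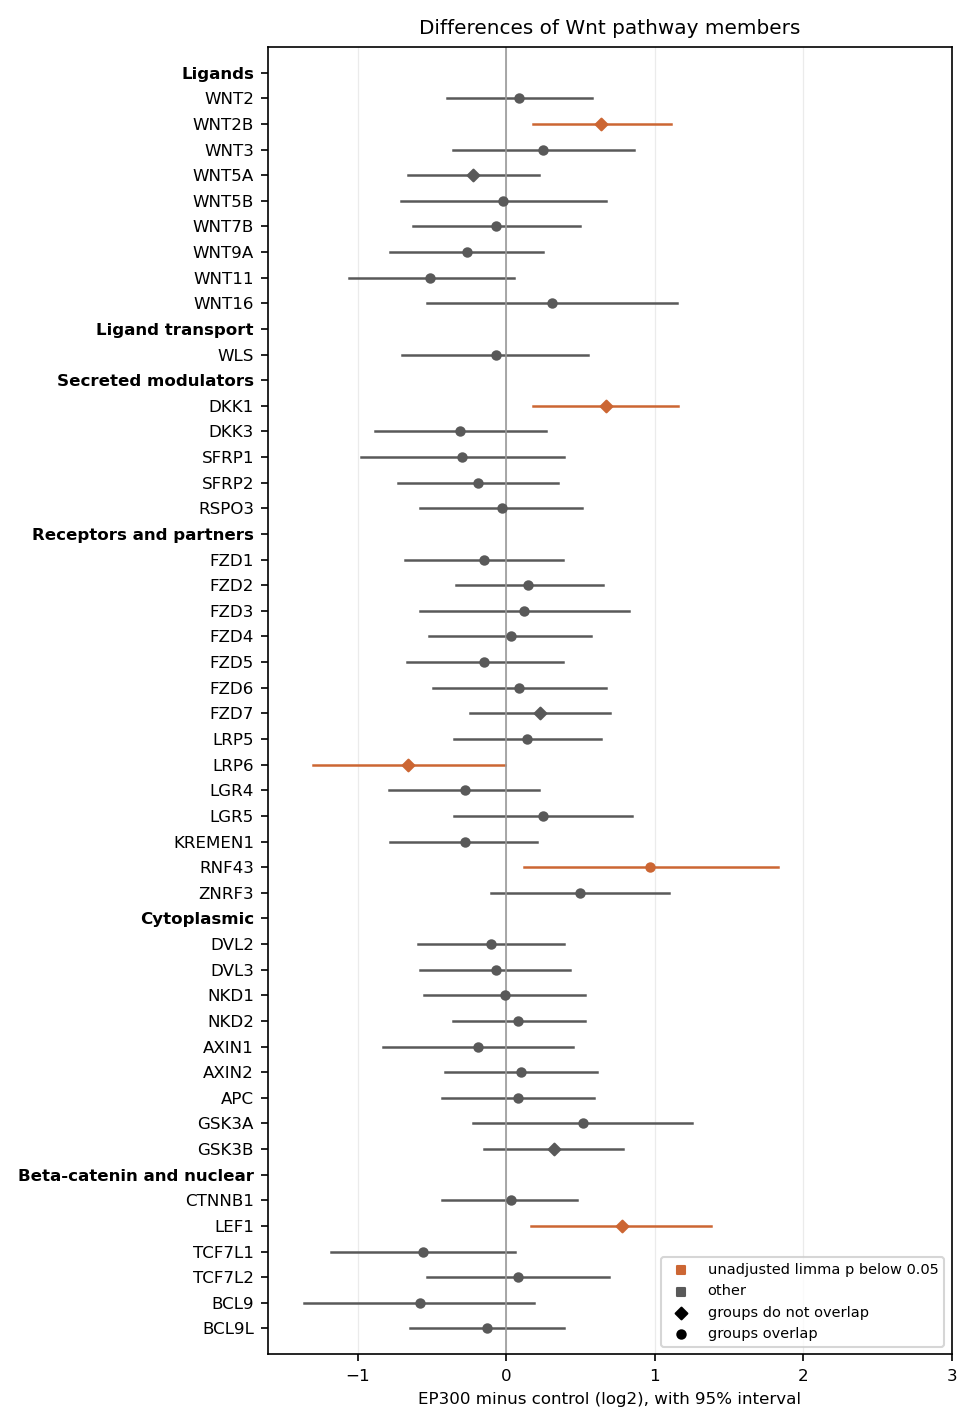
Difference between EP300 and control cultures for the 44 measured members by role (log2, horizontal axis), with limma 95% intervals. Orange marks the 5 members with an unadjusted p below 0.05, and diamonds mark the 7 whose groups do not overlap. Most intervals hold 0, and those of DKK1, LEF1, RNF43, WNT2B and LRP6 do not.

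Of the members, DKK1, LEF1 and WNT2B were higher without overlap and with an unadjusted p below 0.05. Their promoters are shown because these members read higher together. The windows are the 250 bases before each start site in RefSeq (GRCh38.p14), and 29 of the 44 members were matched, with 37 windows. Capitals mark 4 TCF/LEF heptamers and the cAMP response element (TGACGTCA), searched on both strands. The heptamers were CTTTGAA together with CTTTGAT, and further CTTTGTA together with CTTTGTT. The heptamers do not overlap each other in the printed windows. DKK1 lies at chr10:52314031-52314280 on the plus strand, LEF1 at chr4:108166302-108166551 on the minus strand, and WNT2B has 2 windows on the plus strand, chr1:112466291-112466540 and chr1:112508715-112508964.
DKK1: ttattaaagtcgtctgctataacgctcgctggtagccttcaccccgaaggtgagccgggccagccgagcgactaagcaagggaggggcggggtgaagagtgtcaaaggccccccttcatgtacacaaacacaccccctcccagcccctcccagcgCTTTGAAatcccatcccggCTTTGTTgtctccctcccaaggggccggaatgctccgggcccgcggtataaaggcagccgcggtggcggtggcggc
LEF1: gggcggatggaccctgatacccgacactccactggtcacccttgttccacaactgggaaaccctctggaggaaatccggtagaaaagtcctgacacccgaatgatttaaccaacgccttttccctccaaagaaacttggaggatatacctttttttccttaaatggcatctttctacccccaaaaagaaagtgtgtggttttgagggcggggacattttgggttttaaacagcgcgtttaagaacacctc
WNT2B first start: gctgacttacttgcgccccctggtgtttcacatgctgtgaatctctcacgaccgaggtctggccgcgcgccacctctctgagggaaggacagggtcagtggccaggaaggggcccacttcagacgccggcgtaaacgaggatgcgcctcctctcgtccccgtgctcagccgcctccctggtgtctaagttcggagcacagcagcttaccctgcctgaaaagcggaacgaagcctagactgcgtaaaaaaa
WNT2B second start: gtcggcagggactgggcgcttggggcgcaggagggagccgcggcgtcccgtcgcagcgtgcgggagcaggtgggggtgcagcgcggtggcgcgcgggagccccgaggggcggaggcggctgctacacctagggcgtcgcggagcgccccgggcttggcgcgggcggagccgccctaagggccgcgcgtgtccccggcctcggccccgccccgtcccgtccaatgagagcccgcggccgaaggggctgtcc
The DKK1 window holds CTTTGAA at bases 156 to 162 and CTTTGTT at bases 175 to 181, counted from its 5′ end, both on the strand of the gene. None of the searched motifs is in the LEF1 or WNT2B windows. A TCF/LEF heptamer was in 2 of the 37 member windows (5.41%), that of DKK1 and 1 of TCF7L2, and in 4199 of 35116 windows of all genes (12%). The cAMP response element was in 0 of the 37 and in 578 of all windows (1.65%). The median GC content was 64.8% in the member windows and 58% in all windows. A match is a description of the letters and no sign of binding.

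Of the 9 ligands, 4 were higher and 5 lower, with a median difference of -0.02. An unadjusted limma p below 0.05 was found for 1 of them (11.1%), against 6.52% of all probe sets. WNT2B, a ligand of the canonical branch, read 2.83, 2.8 and 2.56 in control replicates 1 to 3 and 3.45, 3.48 and 3.20 in EP300 replicates 1 to 3. All EP300 arrays lay above all control arrays. The means were 2.73 ± 0.15 and 3.38 ± 0.16 (SD, n = 3), and the difference was 0.64 ± 0.21 SE (95% interval 0.18 to 1.11, limma adjusted p = 0.738). The values lay below the lower quartile on 5 of 6 arrays. No fold is given at such levels, since the background was not known.

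WNT5A, the main ligand of the branch without beta-catenin, read 9.23, 9.15 and 9.21 in control and 8.87, 9.08 and 8.98 in EP300 cultures. The control arrays were close together and the EP300 arrays all lay below them. The difference was -0.22 ± 0.20 SE (95% interval -0.66 to 0.22, limma adjusted p = 0.893), and the interval in folds ran from 0.631-fold to 1.17-fold. Its paralog WNT5B differed by -0.02, with 4.92 to 5.80 in control and 4.75 to 5.57 in EP300 cultures. WNT11, a further ligand linked to cell polarity, read 3.13, 3.42 and 3.53 in control and 3.15, 2.46 and 2.96 in EP300 cultures. Its groups overlapped by a single pair of arrays, and the difference of -0.51 (interval -1.06 to 0.05) was -0.31 without EP300 replicate 2. Like WNT2B, it lay below the lower quartile on 5 of 6 arrays.

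WNT16 had the widest spread of the ligands, with 2.82 to 4.28 in control and 3.28 to 3.98 in EP300 cultures and a difference of 0.31 (interval -0.53 to 1.15). It was 0.76 without control replicate 2 and 0.04 without control replicate 3. WNT9A differed by -0.26, and by -0.07 without EP300 replicate 3. WNT3 differed by 0.25, and by 0.02 without EP300 replicate 2. WNT16 and WNT3 each lay below the lower quartile on 3 of 6 arrays. WNT7B differed by -0.07 and WNT2 by 0.09, and WNT2 lay below the lower quartile on all 6 arrays. WLS, the carrier that brings Wnt proteins to the cell surface, read 5.52, 6.25 and 5.20 in control and 5.63, 5.61 and 5.51 in EP300 cultures. The EP300 arrays lay inside the control range, and the difference was -0.07 (interval -0.70 to 0.55, limma adjusted p = 0.979), turning to 0.23 without control replicate 2.

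**Figure D2:**
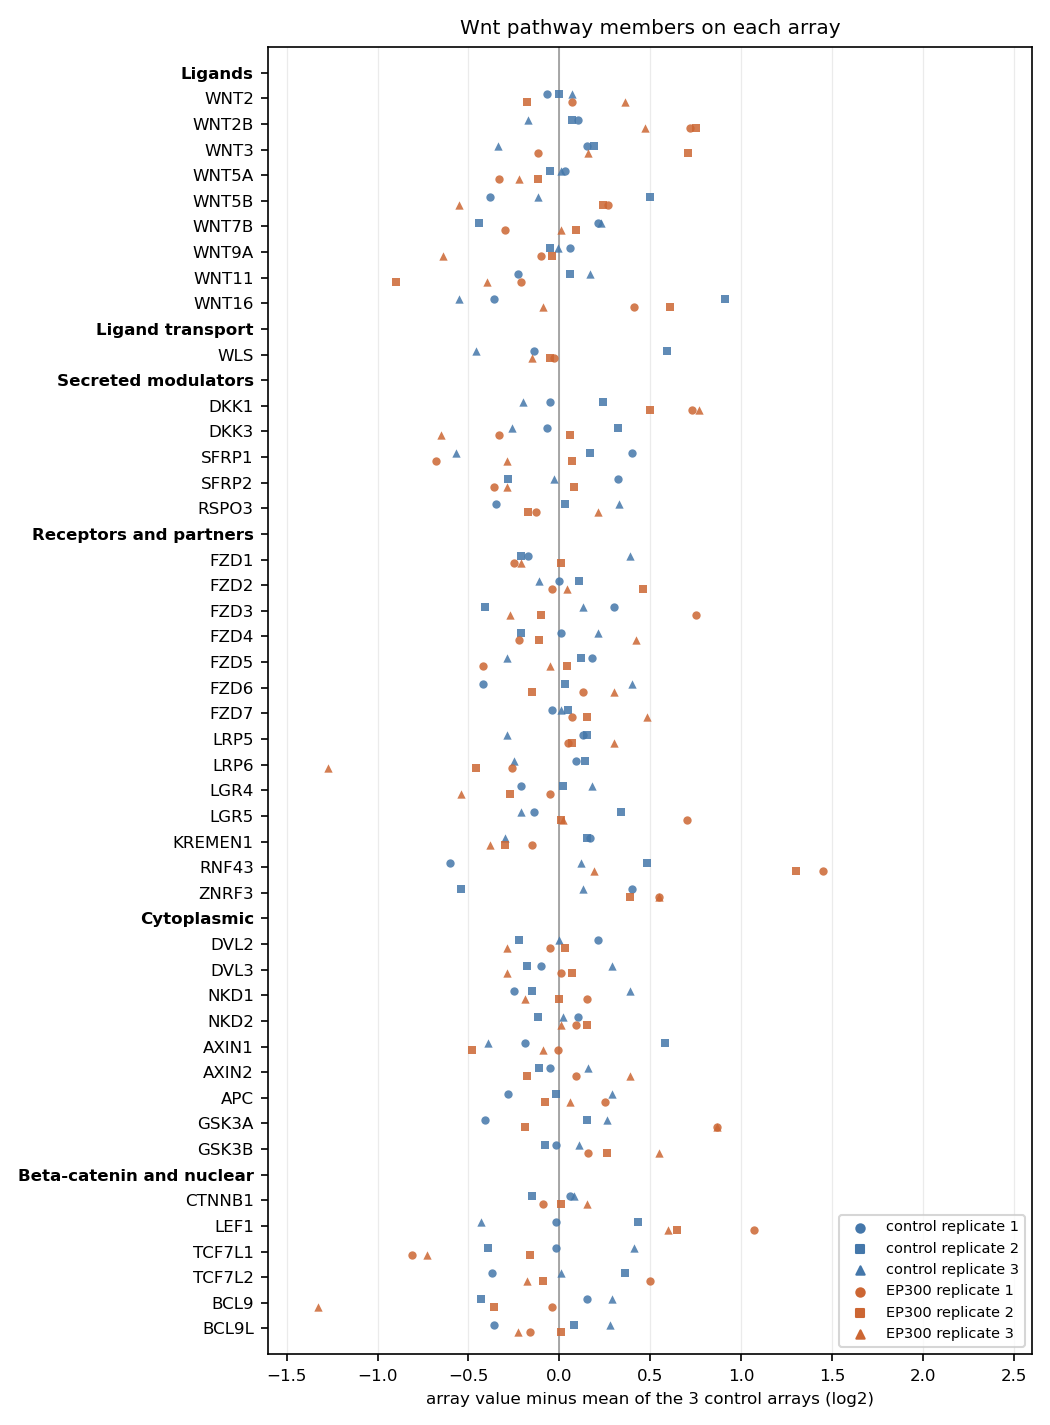
Value of each member on each array minus the mean of its 3 control arrays (log2, horizontal axis), by role; blue for control, orange for EP300, with 1 symbol per replicate number. The EP300 points of DKK1, LEF1 and WNT2B all lie to the right of the control points, and single EP300 arrays lie far left for LRP6 and BCL9.

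Of the 5 secreted modulators, 1 was higher and 4 were lower, with a median of -0.19. DKK1, which binds LRP5 and LRP6 and blocks canonical signalling, read 7.62, 7.91 and 7.47 in control and 8.40, 8.17 and 8.44 in EP300 cultures. Every EP300 array lay above every control array. The means were 7.67 ± 0.23 and 8.34 ± 0.15 (SD, n = 3), a 1.59-fold level with an interval from 1.13-fold to 2.23-fold, and the log2 difference was 0.67 ± 0.22 SE (limma adjusted p = 0.738). With 1 array left out it ran from 0.57 to 0.79.

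DKK3, a relative of DKK1 that does not block LRP6 in the same way, read 8.16, 8.55 and 7.97 in control and 7.90, 8.29 and 7.58 in EP300 cultures. The groups overlapped, and the difference was -0.31 (interval -0.88 to 0.27, limma adjusted p = 0.887), or -0.14 without EP300 replicate 3. The secreted Frizzled-like antagonists differed by -0.30 for SFRP1 and -0.19 for SFRP2. SFRP1 went from -0.10 without control replicate 1 to -0.58 without control replicate 3, and SFRP2 to -0.03 without control replicate 1. RSPO3, an R-spondin that strengthens Wnt signals through LGR receptors, differed by -0.03 and lay below the lower quartile on all 6 arrays.

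Of the 14 receptors and receptor partners, 9 were higher and 5 lower, with a median of 0.11. FZD7, a Frizzled receptor, read 6.83, 6.92 and 6.88 in control and 6.94, 7.02 and 7.35 in EP300 cultures. The groups did not overlap, but the gap between them was small, and EP300 replicate 3 stood above the other arrays. The difference was 0.23 ± 0.21 SE (interval -0.24 to 0.70, limma adjusted p = 0.895) and 0.11 without EP300 replicate 3. FZD6, another Frizzled, read 10.06, 10.51 and 10.88 in control and 10.61, 10.33 and 10.78 in EP300 cultures. The groups overlapped, with a difference of 0.09 (interval -0.49 to 0.67, limma adjusted p = 0.968) that turned to -0.12 without control replicate 1. The other Frizzled genes differed by -0.15 (FZD1 and FZD5), 0.15 (FZD2), 0.12 (FZD3) and 0.03 (FZD4). With 1 array left out FZD1 ran from -0.26 to 0.04, FZD2 from 0.00 to 0.25, FZD3 from -0.19 to 0.32, FZD4 from -0.17 to 0.15 and FZD5 from -0.30 to -0.01.

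LRP6 and LRP5 encode the Wnt co-receptors. LRP6 read 5.46, 5.51 and 5.12 in control and 5.11, 4.91 and 4.10 in EP300 cultures. EP300 replicate 3 was the lowest array, and the groups were separated only by the step from 5.12 to 5.11. The difference was -0.66 ± 0.29 SE (interval -1.30 to -0.01, limma adjusted p = 0.765), and without EP300 replicate 3 it was -0.35. LRP5, which shares the co-receptor role, differed by 0.14 (interval -0.35 to 0.64), with 5.63 to 6.07 in control and 5.97 to 6.22 in EP300 cultures, and by 0.00 without control replicate 3. The difference between the responses of LRP5 and LRP6 was not tested.

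RNF43 and ZNRF3 encode membrane ubiquitin ligases that remove Frizzled from the cell surface. RNF43 read 2.61, 3.69 and 3.33 in control and 4.66, 4.51 and 3.40 in EP300 cultures. EP300 replicates 1 and 2 lay above all controls, while replicate 3 lay among them. The difference of 0.97 ± 0.38 SE (interval 0.12 to 1.83, limma adjusted p = 0.748) was the highest among the members, and it was 1.37 without EP300 replicate 3 and 0.67 without control replicate 1. RNF43 lay below the lower quartile on 3 of 6 arrays, and its fold is left out for the same reason. ZNRF3 read 4.05, 3.11 and 3.78 in control and 4.20, 4.04 and 4.20 in EP300 cultures. Control replicate 2 was the low array, and without it the difference went from 0.50 (interval -0.10 to 1.10) to 0.23. The R-spondin receptor genes differed by -0.28 (LGR4) and 0.25 (LGR5), and KREMEN1, a receptor for DKK1, by -0.28. LGR4 was at -0.16 without EP300 replicate 3 and LGR5 at 0.02 without EP300 replicate 1.

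**Figure D3:**
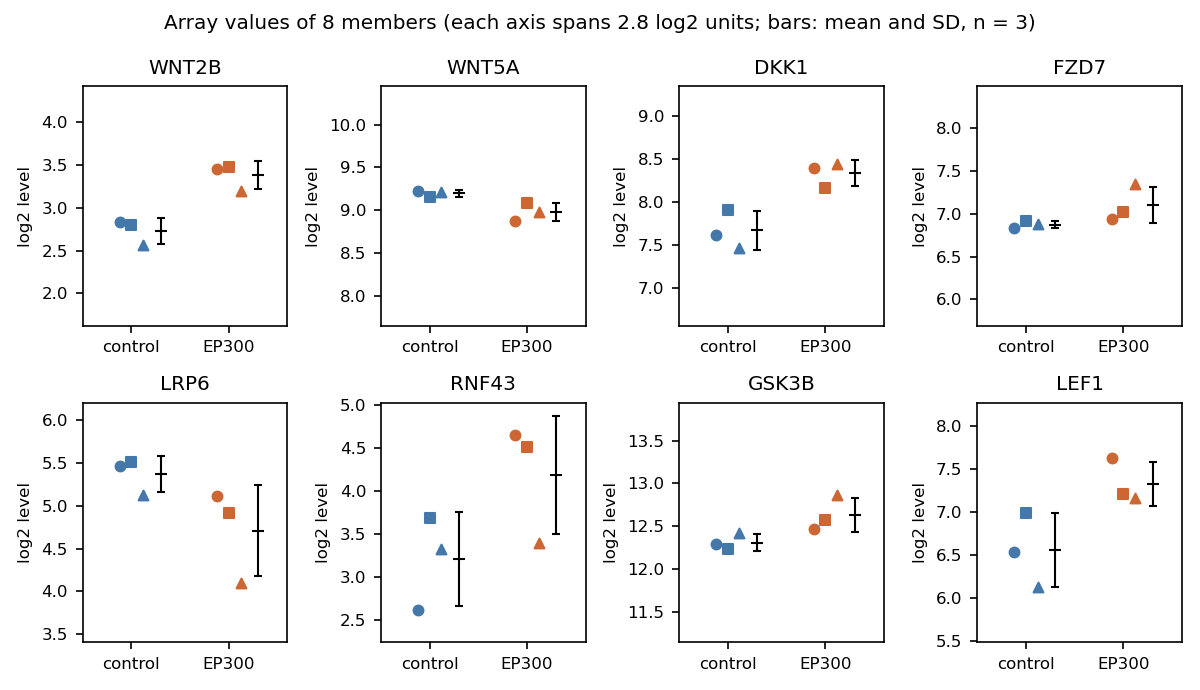
Log2 level on each array (vertical axis) of the 8 members with an unadjusted p below 0.05 or groups that do not overlap; blue for control and orange for EP300 arrays, with the mean and SD of 3 arrays as a bar. RNF43 is the gene whose groups overlap, and the groups of LRP6 are separated only by 5.12 against 5.11.

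Of the 9 cytoplasmic members, 5 were higher and 4 lower, with a median of 0.08. None had an unadjusted limma p below 0.05, against 6.52% of all probe sets. GSK3B, a kinase that marks beta-catenin for destruction, read 12.29, 12.23 and 12.42 in control and 12.47, 12.57 and 12.86 in EP300 cultures. The groups did not overlap. The difference was 0.32 ± 0.21 SE (interval -0.15 to 0.79, limma adjusted p = 0.842), or 1.25-fold, and 0.21 without EP300 replicate 3. Its paralog GSK3A read 6.26, 6.82 and 6.93 in control and 7.54, 6.48 and 7.54 in EP300 cultures. EP300 replicate 2 lay inside the control range and the other 2 above it, and the difference of 0.52 (interval -0.22 to 1.25) was 0.87 without that array and 0.31 without control replicate 1.

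The scaffolds of the destruction complex had intervals that hold 0, and each changed sign when 1 array was left out. APC differed by 0.08 (interval -0.43 to 0.59), AXIN1 by -0.19 (-0.83 to 0.45) and AXIN2, a common readout of beta-catenin activity, by 0.10 (-0.41 to 0.61). With 1 array left out APC ran from -0.06 to 0.23, AXIN1 from -0.38 to 0.10 and AXIN2 from -0.04 to 0.24. AXIN2 read 3.50, 3.44 and 3.71 in control and 3.64, 3.37 and 3.94 in EP300 cultures, near the lower quartile of the arrays. The Dishevelled genes, which relay the signal from Frizzled, differed by -0.10 (DVL2) and -0.07 (DVL3). NKD1 and NKD2, which bind and restrain Dishevelled, differed by -0.01 and 0.08. NKD1 lay below the lower quartile on 5 of 6 arrays and NKD2 on all 6.

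Of the 6 nuclear members, 3 were higher and 3 lower, with a median of -0.05. LEF1 encodes a DNA-binding partner of beta-catenin and is itself a target of the pathway. It read 6.54, 6.99 and 6.13 in control and 7.63, 7.21 and 7.16 in EP300 cultures. All EP300 arrays lay above all control arrays, and the control arrays were the more spread. The means were 6.56 ± 0.43 and 7.33 ± 0.26 (SD, n = 3), a 1.71-fold level with an interval from 1.13-fold to 2.6-fold. The log2 difference was 0.78 ± 0.27 SE (limma adjusted p = 0.741), and with 1 array left out it ran from 0.56 to 1.00.

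TCF7L1, a TCF factor that acts mostly as a repressor, read 5.57, 5.20 and 6.0 in control and 4.78, 5.43 and 4.86 in EP300 cultures. EP300 replicates 1 and 3 lay below all controls and replicate 2 among them. The difference was -0.56 ± 0.28 SE (interval -1.18 to 0.06, limma adjusted p = 0.788), and -0.36 without control replicate 3. TCF7L2, the TCF factor best known from the intestine, differed by 0.08 (interval -0.53 to 0.69). CTNNB1, which encodes beta-catenin, read 11.94, 11.73 and 11.96 in control and 11.79, 11.89 and 12.03 in EP300 cultures. The groups overlapped, with a difference of 0.03 ± 0.20 SE (limma adjusted p = 0.990). The interval from 0.741-fold to 1.4-fold bounds the change of its transcript, and the arrays do not measure the protein.

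BCL9 and BCL9L encode adaptors that join beta-catenin to its co-activators. BCL9 read 5.59, 5.01 and 5.73 in control and 5.40, 5.08 and 4.11 in EP300 cultures. EP300 replicate 3 was the low array, and without it the difference went from -0.58 (interval -1.36 to 0.19) to -0.21. BCL9L differed by -0.13 (interval -0.65 to 0.39). An exact permutation test (two-sided) of each of the 7 members without overlap gave p = 0.1, and 3 against 3 arrays cannot give less.

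**Figure D4:**
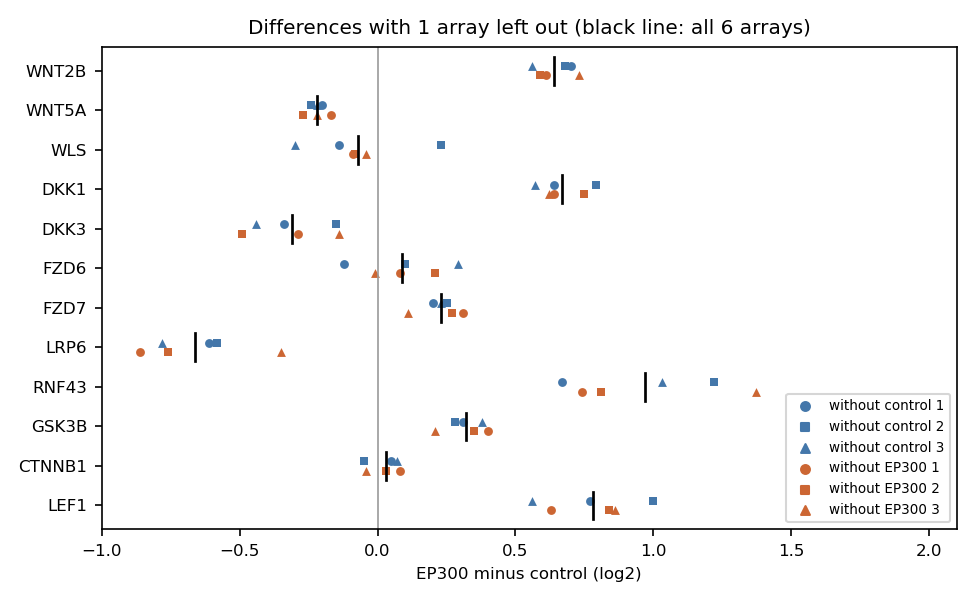
Difference between EP300 and control cultures (log2, horizontal axis) for the 12 members named by the rule, with each of the 6 arrays left out in turn; the black line is the value with all 6. DKK1 ran from 0.57 to 0.79, LEF1 from 0.56 to 1.00 and WNT2B from 0.56 to 0.73. The groups of DKK1, LEF1, WNT2B, LRP6, GSK3B, FZD7 and WNT5A do not overlap, so leaving out an array could not change their direction. RNF43 and DKK3, whose groups overlap, kept their sign, while CTNNB1, FZD6 and WLS lie on both sides of 0.

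Further genes of the pathway were taken from 7 lists, with 110 measured genes that are not members. By limma 0 of them passed the test, and their median difference was 0.02. At an unadjusted limma p below 0.05, 3 were higher and 2 lower (4.55%), against 6.52% of all probe sets. That count was 8 of 110 without EP300 replicate 1, where 1365 of all 21448 probe sets lay below that p. It was 1 of 110 without EP300 replicate 3, where 1225 of all probe sets did. The 9 other ligands had a median of -0.01, the 9 other receptors of -0.08, the 14 other secreted modulators of -0.01 and the 15 other cytoplasmic genes of -0.04. The 21 other nuclear genes had a median of 0.12, with 14 higher and 7 lower, and none had an unadjusted limma p below 0.05. Among them the co-activator CREBBP, the paralog of EP300, differed by 0.26 (interval -0.42 to 0.94). TNKS2, a tankyrase that promotes the breakdown of AXIN, read 6.27, 5.95 and 6.09 in control and 6.37, 6.78 and 6.81 in EP300 cultures. The groups did not overlap, and the difference was 0.55 ± 0.22 SE (limma adjusted p = 0.748).

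Target genes of beta-catenin were higher more often than lower, 22 against 10 of 32, with a median of 0.17, while 50.2% of all probe sets were higher. This list was chosen with earlier results of these data known, so the counts are a description and were not tested. The list shares 7 measured genes with the members, and those 7 had a median of 0.50. DKK1, LEF1, RNF43 and ZNRF3 were at or above that median, while LGR5 (0.25), AXIN2 (0.10) and NKD1 (-0.01) were below it. Over the 25 targets that are not members 16 were higher and 9 lower, with a median of 0.13, and 3 (12%; 2 higher, 1 lower) had an unadjusted p below 0.05 against 6.52% of all probe sets. The groups did not overlap for 2 of the 25 (8%), against 12.2% of all probe sets. CCND1, the cyclin D1 gene of the entry into the cell cycle, read 11.56, 11.96 and 11.64 in control and 10.93, 10.89 and 11.28 in EP300 cultures. All EP300 arrays lay below all control arrays, with a difference of -0.69 ± 0.22 SE (interval -1.19 to -0.19, limma adjusted p = 0.738). ID2, an inhibitor of differentiation factors, read 9.57, 10.11 and 10.29 in control and 10.98, 10.32 and 10.92 in EP300 cultures. Its groups did not overlap, with a difference of 0.75 ± 0.28 SE (limma adjusted p = 0.746). BMP4, a ligand of the BMP family, read 5.73, 6.66 and 6.13 in control and 6.47, 7.52 and 6.78 in EP300 cultures. Its groups overlapped, with a difference of 0.75 ± 0.33 SE (limma adjusted p = 0.765).

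The 19 genes of the polarity and calcium branch had a median of 0.01. ROCK2, a kinase that drives actomyosin contraction downstream of RHOA, read 10.49, 10.31 and 10.18 in control and 10.05, 9.43 and 9.67 in EP300 cultures. All EP300 arrays lay below all control arrays, and the difference was -0.61 ± 0.23 SE (interval -1.13 to -0.09, limma adjusted p = 0.748).

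**Figure D5:**
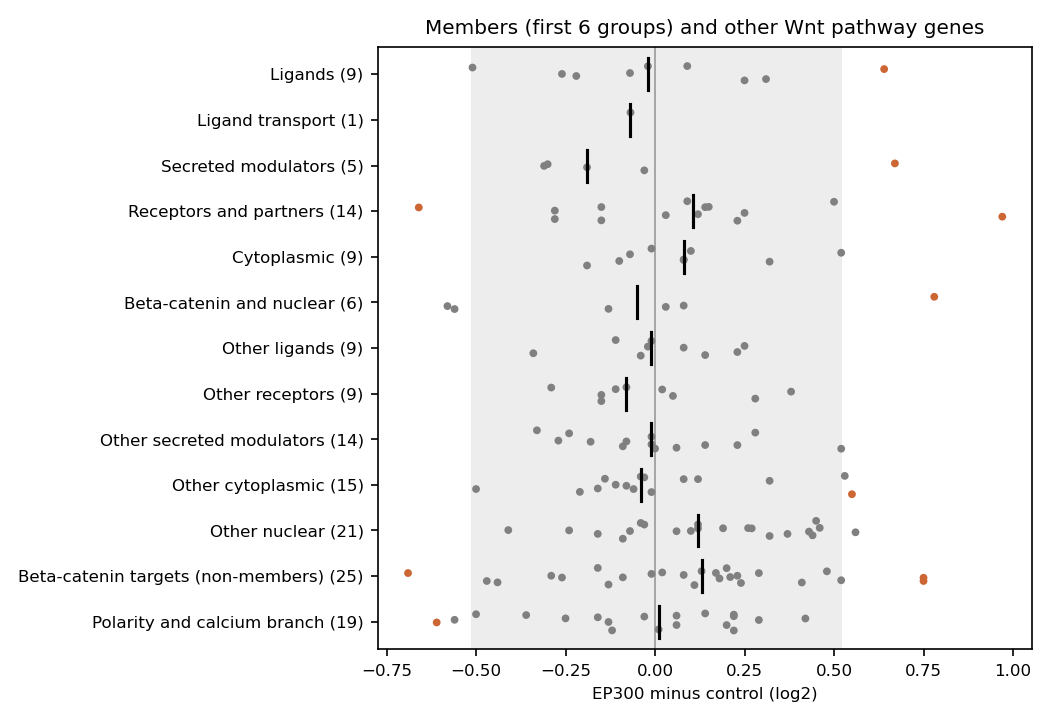
Difference between EP300 and control cultures (log2, horizontal axis) for the members by role and for other pathway genes by list, with the number of genes in brackets. Each point is a gene, orange where the unadjusted p was below 0.05, black lines are medians, and the grey band holds the middle of all probe sets, from -0.51 to 0.52 (their 5th to 95th percentile). Group medians lie between -0.19 and 0.13.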

How the data were processed

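Array data of 6 HS578T cultures, 3 with an EP300 vector and 3 with the empty vector, were used. The authors' deposited table holds 1 value per probe set, taken as log2. No label states the scale, which was inferred from the range of the values (1.787 to 19.93). Partek 6.6 is named in the submitters' processing notes. How the authors corrected background and normalized, and on which genome build, is not given in the sources used here. Detection calls were not used here, so the background is unknown.

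Probe sets were named from the platform annotation (1 symbol for 17709, none for 3739), and 0 symbols needed an update against RefSeq (GRCh38.p14). EP300 minus control was tested with limma 3.58.1 (lmFit, eBayes; R 4.3.3), with no filter, covariate or block, and Benjamini-Hochberg adjustment over all probe sets at 0.05. The fit code was run on data simulated from the assumptions of its own model. The shifts added there were larger than any member's difference, so power at the sizes seen here was not checked. Errors are SD of 3 arrays, or moderated SE and 95% intervals. The number of arrays limits the precision.

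Members with an unadjusted p below 0.05, with groups that do not overlap, or with the highest value of their role are described in full, as are listed pathway genes with an unadjusted p below 0.05 (at most 4 a list). Ranking by value within a role served only to choose genes and depends on probe response. The members and lists were chosen with earlier results of these data known.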

Additional observations from a re-analysis of the deposited data

How the results depend on the processing

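In the 11 alternatives run, 0 members passed the threshold, and their lowest limma adjusted p was 0.577. Of the 44 members, 26 kept the sign of their difference in all alternatives that held them. For the 7 members without overlap, leaving out an array could not change it. With a variance trend and robust estimation 4 probe sets passed, none of them a member. Among the probe sets above the median level 28 members were left, of which 2 had an unadjusted limma p below 0.05 and 11 were higher. There 848 probe sets lay below that p, out of fewer tested than in the main fit. The share over the tested probe sets was not computed, so the 2 of 28 cannot be set against the 6.52% of the main fit. With this filter the receptor median was 0.0274. Without 1 array it ran from 0.014 to 0.139, the nuclear median from -0.206 to 0.0404, the cytoplasmic from -0.00618 to 0.182, the ligand from -0.143 to 0.0854 and the secreted modulator median from -0.327 to -0.096. The median of other nuclear genes reached 0.247 without control replicate 3, and the count of other pathway genes at an unadjusted p below 0.05 ran from 1 to 8. Of all 21448 probe sets, 1225 lay below that p in the fit that gave 1, and 1365 in the fit that gave 8. CTNNB1 was at -0.0519 with quantile normalization, and without 1 array ran from -0.0469 (control replicate 2) to 0.0826 (EP300 replicate 1), FZD6 from -0.117 (control replicate 1) to 0.29 (control replicate 3) and WLS from -0.298 (control replicate 3) to 0.226 (control replicate 2). The causes of these changes were not tested.

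Replicate numbers shared between the groups did not pair the arrays: the correlations of deviations from the group means were -0.00153, -0.00528 and -0.00893 for numbers 1 to 3. With the replicate block 5 members had an unadjusted limma p below 0.05, as without it, 1295 of all probe sets did, and 0 probe sets passed. Each member and listed gene had 1 probe set, so the mean over a gene's probe sets could not differ and was not run.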
